A study of Mus musculus with 168 samples.

Results

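Mir148a, Mir148b and Mir152 are the 3 mouse genes of the miR-148 family, which includes miR-152, and this section gives their levels in the cortex of Huntington's disease knock-in mice. They were chosen by gene name, not by their values, though with earlier results of these data known. They are the transcripts of the cortex table that the GENCODE vM21 annotation of GRCm38 names Mir148a, Mir148b or Mir152. They make up 3 of the 329 microRNAs tested. Small RNA was sequenced from 168 cortices, 8 mice (4 female and 4 male) from each of 7 genotypes at 2, 6 and 10 months. Q20, Q80, Q92, Q111, Q140 and Q175 mice were heterozygous on C57BL/6, with 1 endogenous Htt allele and 1 allele into which a human HTT exon 1 with an expanded or, in Q20, a short CAG tract was knocked in. The Q175 line arose within the Q140 line by a spontaneous expansion of the tract, and the WT mice were littermates of the Q20 line, with a CAG length of 7. Both WT and Q20 mice served as controls at 2 and 10 months, and Q20 mice alone at 6 months. Each library came from 1 mouse.

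A microRNA guides the Argonaute protein to target mRNAs mainly through its seed, bases 2 to 8 of the mature strand, and lowers their translation and stability. The family is known for targeting the DNA methyltransferase Dnmt1, and miR-148a is known as an abundant microRNA of liver. The libraries are of whole cortex pieces, in which fewer cells of a type and less RNA per cell cannot be told apart.

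The mature sequences are shown because the seed is what makes the 3 genes a family, and the letters in capitals are bases 2 to 8 (RefSeq, build GRCm38.p6, all 3 genes matched).
miR-148a-3p: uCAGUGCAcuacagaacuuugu
miR-148b-3p: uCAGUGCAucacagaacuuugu
miR-152-3p: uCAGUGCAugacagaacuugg
The 3 genes were the only ones of 1679 mature mouse microRNAs in that table with CAGUGCA at bases 2 to 8. Counted from 1 at the 5′ end, miR-148a-3p and miR-148b-3p differ by C9U and U10C over 22 bases. Between miR-148b-3p and miR-152-3p the differences over 21 bases are C10G and U20G, and between miR-148a-3p and miR-152-3p they are C9U, U10G and U20G. The strands from the other arm of each hairpin do not carry this seed, and here too the capitals mark bases 2 to 8.
miR-148a-5p: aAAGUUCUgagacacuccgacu
miR-148b-5p: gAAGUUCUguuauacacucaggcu
miR-152-5p: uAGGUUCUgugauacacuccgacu
The deposited value of a gene is 1 number for its whole hairpin, so the arms could not be separated. A further set of microRNAs carries the same 7 letters 1 base earlier, and the capitals below mark bases 1 to 7.
miR-130a-3p: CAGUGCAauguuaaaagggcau
miR-130b-3p: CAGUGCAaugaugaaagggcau
miR-301a-3p: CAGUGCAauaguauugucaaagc
In all, 7 of the 1679 mature microRNAs began with these letters.

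The genes lie on 3 chromosomes in similar surroundings. Mir148a (ENSMUSG00000065505) is at chr6:51269812-51269910 on the minus strand and is intergenic. Its nearest coding gene is Nfe2l3, 163 kb away. Mir148b (ENSMUSG00000065560) is at chr15:103285125-103285221 on the plus strand in an intron of Copz1, a coatomer subunit of vesicle transport, with Nfe2 26.7 kb away. Mir152 (ENSMUSG00000065515) is at chr11:96850393-96850465 on the plus strand in an intron of Copz2, the paralog of Copz1, with Nfe2l1 20.4 kb away. Nfe2, Nfe2l1 and Nfe2l3 encode related leucine zipper transcription factors. None of the hairpins overlapped an annotated exon, and host gene mRNA was not analysed here.

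The 3 genes were detected in every library at very different levels, and the libraries held 2041741 to 11646287 counts in all. Levels are given as CPM, the estimated count as a share of the library's total, scaled by the TMM method (the usual CPM unit). Mir148a had 3054 to 35972 counts per library, Mir148b 2157 to 13471 and Mir152 144 to 802 and all of these values were whole numbers. By mean CPM over the 168 libraries they ranked 41, 66 and 169 of 329 (2241, 933 and 62.2 CPM). On the deposited scale per length, FPKM, the level of Mir148a was above that of Mir148b and the level of Mir148b above that of Mir152 in 168 of 168 libraries. At 2 months the median FPKM levels over 56 libraries were 23314, 9313 and 746. Each hairpin has its own annotated length (99, 97 and 73 bases) while the mature strands are of nearly one length, so the FPKM order carries that difference too. The 2-month libraries gave Mir148a a median of 70.5% of the family's counts (64.8 to 74.2%), Mir148b 27.9% (24.2 to 33.3%) and Mir152 1.64% (1.35 to 2.09%).

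**Figure D1:**
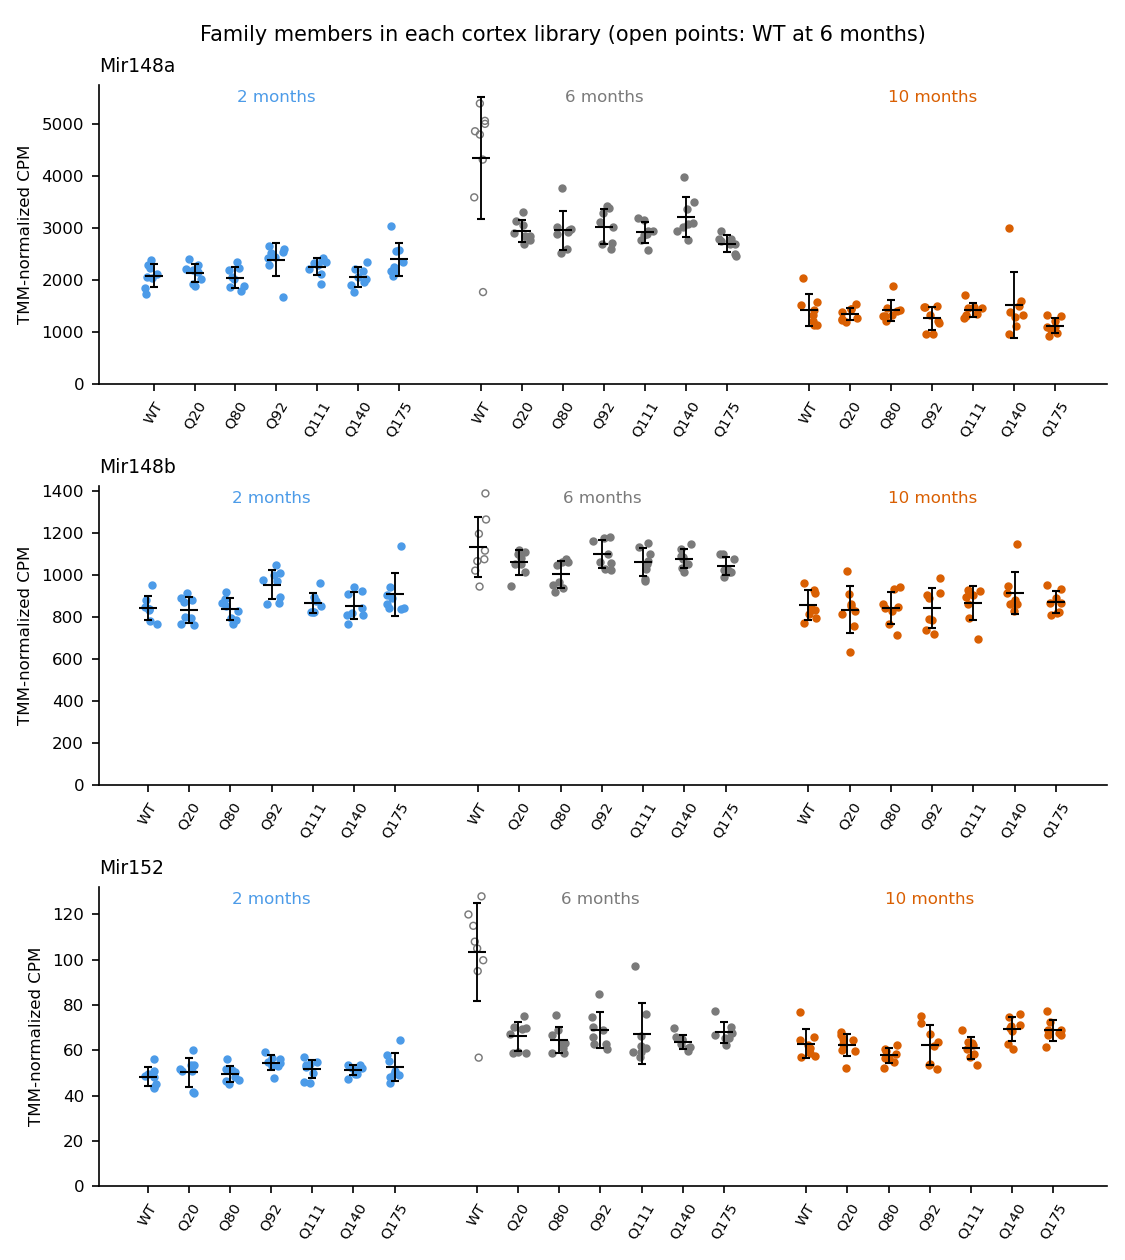
Level of each family member in every cortex library, as TMM-normalized CPM on a linear axis from 0, by genotype and age (8 mice per group). Points are libraries, the horizontal mark and bar are the group mean and SD, and open points are the WT libraries at 6 months. Mir148a was lower at 10 months (median 1331 CPM) than at 2 months (2204 CPM), and 7 of the 8 WT libraries at 6 months lay at 3592 CPM or above.

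Mir148a fell between 2 and 10 months in the controls and in each of the 5 mutant genotypes, Mir152 rose in the controls and in 4 of the 5, and Mir148b passed in Q92 alone. Of the 18 values (3 genes in 6 groups), 12 passed an adjusted p of 0.05, where the share of all tested microRNAs that passed was 49.4% for controls, 30.2% for Q80 mice, 36.8% for Q92 mice, 33.8% for Q111 mice, 36.9% for Q140 mice and 39.3% for Q175 mice. Calls between these ages were thus common among microRNAs in general. How many of all tested microRNAs had ages without overlap was not counted, so a lack of overlap given below is description only. The L number, a number in the library name, was 1 to 5 or 7 at 2 months and 6 to 8 at 10 months, with only number 7 at both (4 and 25 libraries), so age and the making of the libraries cannot be told apart. The test was edgeR's quasi-likelihood F test with Benjamini-Hochberg adjustment over all tested microRNAs, here and below, and the 6-month libraries were left out of it. Marker microRNAs moved between the same ages in controls: 4 of 8 neuronal and 1 of 2 oligodendrocyte markers rose, as did the single red blood cell, leukocyte and choroid plexus markers tested, while 1 of 3 vessel and 1 of 4 liver markers fell. Their part in the family's values was not tested.

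In the 16 control mice of 2 months Mir148a ranged from 1731 to 2408 CPM with a median of 2141, and in the 16 of 10 months from 1130 to 2045 CPM with a median of 1364. At 10 months 15 of the 16 controls were below the lowest 2-month control, and only the library at 2045 CPM overlapped. Mir148a fell by 34.3% (log2 -0.61, SE 0.06, adjusted p = 9.9e-10). In Q175 mice the range was 2084 to 3039 CPM at 2 months (median 2305) and 925 to 1331 CPM at 10 months (median 1097). The Q175 groups did not overlap, and Mir148a fell by 53.1% (log2 -1.09, SE 0.09, adjusted p = 2.17e-08). The ages did not overlap in Q92 mice either, with 1677 to 2648 CPM against 962 to 1506 CPM (log2 -0.93, SE 0.11, adjusted p = 5.95e-06), nor in Q111 mice, with 1931 to 2426 CPM against 1274 to 1721 CPM (log2 -0.67, SE 0.06, adjusted p = 3.24e-07). In Q80 mice 7 of the 8 libraries of 10 months were below the lowest of 2 months (log2 -0.53, SE 0.07, adjusted p = 2.37e-05).

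The Q140 mice gave the smallest of these 6 values and the widest spread. Mir148a ranged from 1767 to 2355 CPM at 2 months (median 2046) and from 957 to 3004 CPM at 10 months (median 1360). A single library, female 2 of the 10-month group at 3004 CPM, lay above every 2-month Q140 library, while the other 7 were at or below 1598 CPM. The log2 change was -0.48 (SE 0.16, adjusted p = 0.0311) with that library and -0.66 (SE 0.09, adjusted p = 5.91e-05) without it, a setting chosen after its value was seen. Its ratio of Mir148a to Mir152 CPM, 40.1, was the highest at 10 months. That ratio lay within the range of the 2-month libraries (33.3 to 54.3) and of the 6-month libraries other than WT (26.5 to 64.1). The library's Mir152 level, 74.8 CPM, and its Mir148b level, 1147 CPM, were above the 2-month ranges (41.0 to 64.4 and 760 to 1140 CPM). Both were within the 6-month ranges without WT (57.0 to 97.2 and 917 to 1181 CPM). What lies behind the values of this library was not tested. In Q140 mice the fall was not called when all transcripts of the table were tested (adjusted p = 0.0679) or without the libraries whose name carries L number 8 (adjusted p = 0.0509, added after seeing the data).

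Mir152 ran the other way. Control libraries had 41.0 to 60.2 CPM at 2 months (median 50.1) and 52.3 to 76.8 CPM at 10 months (median 62.5), and each of the 16 older controls was above the median of the younger ones. The log2 change in controls was 0.35 (SE 0.05, adjusted p = 2.24e-06), a rise of 27.7%. In Q140 mice the ages did not overlap, with 47.4 to 53.5 CPM at 2 months and 60.6 to 76.2 CPM at 10 months (log2 0.42, SE 0.06, adjusted p = 2.21e-05). Q175 mice had 45.4 to 64.4 CPM and 61.6 to 77.4 CPM, with 7 of 8 older libraries above the highest younger one (log2 0.40, SE 0.07, adjusted p = 0.000122). The rises in Q111 (log2 0.23, SE 0.06, adjusted p = 0.00634) and Q80 (log2 0.22, SE 0.06, adjusted p = 0.0105) were smaller, and both lost their call with library totals in place of TMM (adjusted p = 0.0593 and 0.104) and with all transcripts tested (adjusted p = 0.0887 and 0.105). Mir152 did not pass in Q92 (log2 0.18, SE 0.08, adjusted p = 0.0837).

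Mir148b passed between these ages in 1 of the 6 groups. Control libraries had 760 to 952 CPM at 2 months and 635 to 1017 CPM at 10 months, with equal medians (log2 0.02, SE 0.05, adjusted p = 0.777). The values in Q80, Q111, Q140 and Q175 lay between -0.06 and 0.08 on the log2 scale and did not pass. The group that passed was Q92, where 862 to 1047 CPM at 2 months stood against 720 to 988 CPM at 10 months (log2 -0.20, SE 0.07, adjusted p = 0.0249). The 2-month Q92 group had the highest Mir148b mean of its age.

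**Figure D2:**
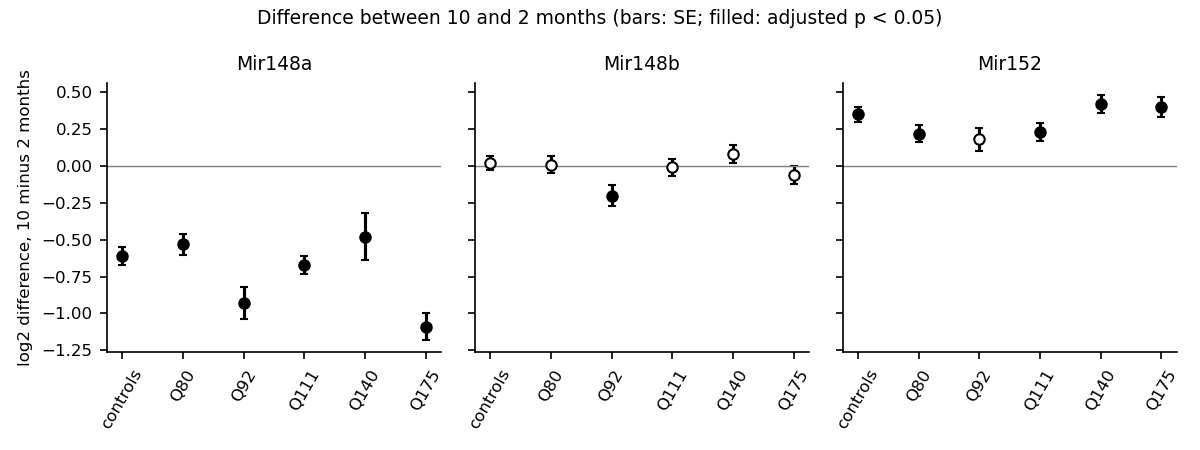
Difference in log2 level between 10 and 2 months for each family member in controls (16 mice per age) and in each mutant genotype (8 mice per age), from edgeR. Bars are SE, filled points have an adjusted p under 0.05, and the line marks no difference. Mir148a was below 0 in all 6 groups (-0.48 to -1.09), Mir152 above 0 in all 6 (0.18 to 0.42), and Mir148b lay between -0.20 and 0.08.

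The make-up of the family moved with these values. Mir148a supplied a median of 70.5% of the family's counts at 2 months and 58.6% at 10 months (50.1 to 71.1%), while Mir148b went from 27.9% to 38.5% and Mir152 from 1.64% to 2.82%. The summed family level had a median of 3107 CPM (2587 to 4243) at 2 months and 2243 CPM (1744 to 4225) at 10 months. The ratio of Mir148a to Mir152 CPM needs no scaling between libraries, and in controls it was 36.3 to 54.3 at 2 months (median 42.8) and 15.9 to 34.8 at 10 months, without overlap. In Q175 mice it was 38.8 to 53.1 (median 46.2) and 14.2 to 19.6 (median 15.4). These ratios and shares are descriptions without a test, since the genes were combined with their values known.

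Each gene had its highest median at 6 months. Without WT, the 48 libraries had 2470 to 3978 CPM of Mir148a (median 2933), 917 to 1181 CPM of Mir148b (median 1058) and 57.0 to 97.2 CPM of Mir152 (median 65.6). Levels of Mir148a thus did not run in the order of the ages, and no test across the 3 ages was made because the 6-month libraries differ in their naming. At that age 0 of 8 libraries of Q80, Q92, Q140 and Q175 and 4 of 8 of Q111 shared an L number with a Q20 library, so that for these 4 genotypes the difference from Q20 and the L number cannot be told apart at 6 months.

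**Figure D3:**
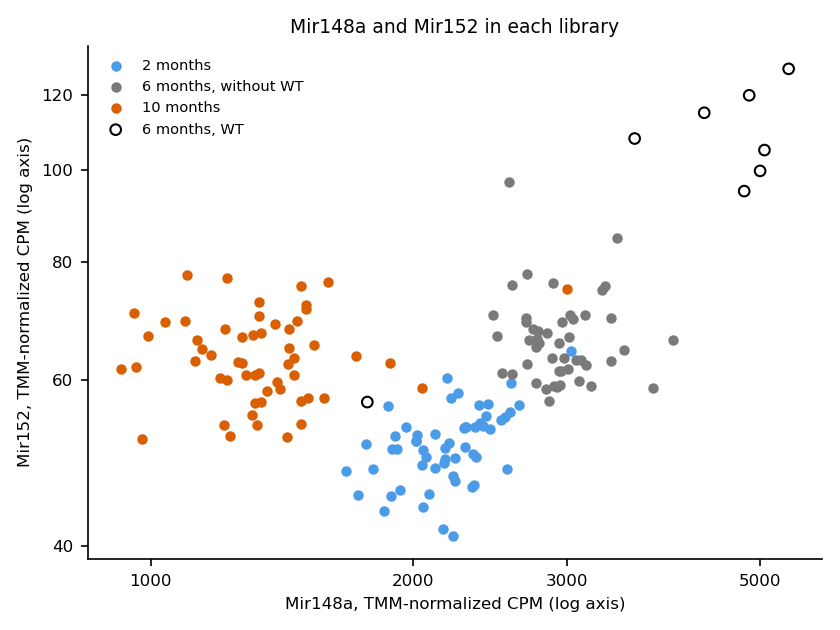
Level of Mir152 against level of Mir148a in each of the 168 libraries, both as TMM-normalized CPM on log axes, colored by age, with WT at 6 months as open circles. Median levels of Mir148a and Mir152 were 2204 and 51.1 CPM at 2 months and 1331 and 62.7 CPM at 10 months. Both were highest in the libraries of 6 months, with 2933 and 65.6 CPM without WT, and 7 of the 8 WT libraries of 6 months lie apart at the upper right.

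To ask which members differed with the Htt allele, each mutant genotype was compared with the controls of its age. In the 15 comparisons the 3 genes gave 45 values, and 1 passed: Mir148a in Q175 mice at 10 months, where 12.2% of all tested microRNAs passed. Of the other values 9 had an unadjusted p under 0.05, and DESeq2's Wald test called 2 of the 45. All 5 comparisons of an age share the same controls.

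Mir148a in the 8 Q175 mice of 10 months ranged from 925 to 1331 CPM with a median of 1097, against 1130 to 2045 CPM and a median of 1364 in the 16 controls. The groups overlapped, but all 8 Q175 libraries were below the control median, 5 were below the lowest control, and 9 controls were above the highest Q175 library. Mir148a fell by 19.5% (log2 -0.31, SE 0.09, adjusted p = 0.0163). It was called under 11 of the 12 alternatives run for it (log2 -0.34 to -0.26, adjusted p 0.00486 to 0.0543), and the exception was the test of all transcripts. With L number as a covariate the log2 difference was -0.26 (adjusted p = 0.0197), and with Q20 mice as the only controls it was -0.27 (adjusted p = 0.0255).

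Mir148a at 10 months also moved with the library name. The 10 libraries with L number 8 had 1309 to 2045 CPM of Mir148a (median 1498), against medians of 1260 CPM with number 6 and 1331 CPM with number 7. The same 10 libraries had 6.25 to 9.46 CPM of Mir122, a microRNA that marks liver, where number 6 had 0.575 to 2.46 CPM and number 7 had 0.198 to 12.6 CPM. Number 8 held 5 of the 16 controls and 1 of the 8 Q175 libraries. Within number 6 the mean was 1313 CPM in 7 controls and 1059 CPM in 3 Q175 libraries, and within number 7 it was 1284 CPM in 4 controls and 1129 CPM in 4 Q175 libraries. Without number 8 the log2 difference was -0.27 (adjusted p = 0.0231, added after seeing the data), and with log2 Mir122 CPM as a covariate it was -0.27 (adjusted p = 0.0251). Mir122 itself had 0.419 to 6.97 CPM in Q175 mice and 0.432 to 9.46 CPM in controls (log2 -0.74, SE 0.58, adjusted p = 0.459).

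**Figure D4:**
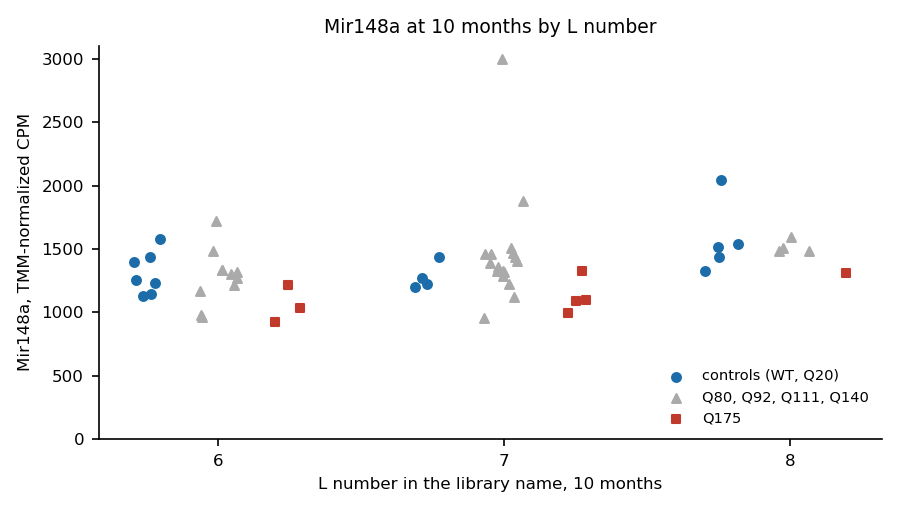
Level of Mir148a in the 56 libraries of 10 months, as TMM-normalized CPM on an axis from 0, by the L number of the library name, with controls as blue circles, Q175 as red squares and the other mutant genotypes as gray triangles. Q175 means of 1059 and 1129 CPM at L numbers 6 and 7 stand below control means of 1313 and 1284 CPM, and L number 8 holds 1 Q175 library, at 1309 CPM.

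At 6 months Q175 mice had 2470 to 2943 CPM of Mir148a (median 2724) and Q20 mice 2695 to 3320 CPM (median 2876). The 2 groups overlapped, 7 of 8 Q175 libraries were below the Q20 median, and the log2 difference of -0.13 (SE 0.05, adjusted p = 0.229, background 2.77%) did not pass. With outlying counts replaced by the rule of the study's methods and DESeq2 it passed (log2 -0.17, adjusted p = 0.0452). At 2 months the value had the opposite sign: Q175 mice had 2084 to 3039 CPM (median 2305) against 1731 to 2408 CPM (median 2141) in controls, a log2 difference of 0.17 (SE 0.06, adjusted p = 0.578, background 0%). Male 4, at 3039 CPM, was 1 of the 9 libraries with L number 3, which had 5.31 to 26.7 CPM of Mir122, and male 3, at 2584 CPM, had 51.3 CPM of it. With Mir122 as a covariate the log2 difference was 0.13 (adjusted p = 0.82).

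Because the Q175 value was above 0 at 2 months and below 0 at 10 months, the change with age was compared directly between Q175 mice and controls in a joint fit of 48 libraries, added after these values were seen. The age change of Mir148a was lower in Q175 mice by a log2 difference of -0.45 (SE 0.11, adjusted p = 0.00576, with 5.18% of microRNAs called). It stayed called in each of the 10 alternatives run for it, at log2 -0.51 to -0.36. L number as a covariate was not among them. At 2 months L number 3 held 2 controls and 2 Q175 libraries, and number 4 held 0 and 1. At 10 months number 8 held 5 controls and 1 Q175 library. No cell type marker passed in the joint fit. The nearest were the choroid plexus marker Mir204 at -0.72 (SE 0.23) and Mir122 at -3.10 (SE 1.01), each with an adjusted p of 0.0508. Mir204 fell with age in Q175 mice (log2 -0.35, adjusted p = 0.0034) and rose in controls (0.37, adjusted p = 0.0482). Of the 8 neuronal markers tested, 0 rose with age in Q175 mice (16 libraries), where 39.3% of all tested microRNAs passed. In controls (32 libraries) 4 of 8 rose, where 49.4% passed, and in the joint fit 0 of 8 passed. With Mir122 as a covariate the Mir148a difference was -0.36 (adjusted p = 0.0255), and the part of the other markers was not tested. For the other members the fit gave -0.04 (SE 0.07, adjusted p = 0.771) for Mir148b and 0.07 (SE 0.09, adjusted p = 0.702) for Mir152. In the same fit for Q80, Q92, Q111 and Q140, where edgeR called 0% of microRNAs, 0 of 12 values for the family passed, with 2 under an unadjusted p of 0.05 and 0 called by DESeq2. The nearest was Mir148a in Q92 mice (log2 -0.30, SE 0.12, adjusted p = 0.397). The difference between the Q175 and the Q92 value was not tested.

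In mice of the other 4 mutant genotypes Mir148a did not pass at any age, with log2 differences from -0.13 (Q92 at 10 months) to 0.17 (Q92 at 2 months). By group mean at 10 months the order of Mir148a was Q175 (1126 ± 147 CPM, SD, n = 8), Q92 (1268 ± 223), Q20 (1348, range 1202 to 1540), Q80 (1421 ± 202), WT (1426 ± 300), Q111 (1427 ± 143) and Q140 (1525 ± 631). Neighbors in this order differed by less than the SD of either. At 2 months the order ran from Q80 (2052 ± 196 CPM, SD, n = 8), Q140 (2061 ± 188) and WT (2090 ± 220) through Q20 (2139 ± 182) and Q111 (2256 ± 164) to Q92 (2396 ± 310) and Q175 (2404 ± 315), again with neighbors closer than their SDs. Q175 was thus the highest group mean at 2 months and the lowest at 10 months, and Q140 was near the low end at 2 months and highest at 10 months, where its mean rests on the library at 3004 CPM. Without that library the Q140 difference from controls at 10 months went from 0.12 (SE 0.14, adjusted p = 0.83) to -0.09 (SE 0.10, adjusted p = 0.769) on the log2 scale.

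Mir148b came nearest to a call in Q92 mice at 2 months. It ranged from 862 to 1047 CPM (median 973) against 760 to 952 CPM in the controls, all 8 Q92 libraries were above the control median, and 5 were above the highest control. The log2 difference was 0.18 (SE 0.05, adjusted p = 0.0511), at an age and genotype where edgeR called 0% of microRNAs. DESeq2's Wald test (adjusted p = 0.00823), the filter on low counts (adjusted p = 0.0266) and L number as a covariate (adjusted p = 0.0249) each brought it under 0.05. In the other Q92 ages the log2 differences were 0.04 (adjusted p = 0.915, background 0.311%) at 6 months and -0.02 (adjusted p = 0.958, background 0%) at 10 months. All 3 genes had an unadjusted edgeR p under 0.05 in Q92 mice at 2 months, as did 14.7% of all tested microRNAs. Mir148a was at log2 0.17 (SE 0.07, adjusted p = 0.222) and Mir152 at 0.14 (SE 0.06, adjusted p = 0.27). In Q175 mice Mir148b differed from controls by -0.03 to 0.10 on the log2 scale over the 3 ages (adjusted p 0.74 to 0.853).

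Mir152 had its highest group means at 10 months in Q140 (69.4 ± 5.39 CPM, SD, n = 8) and Q175 (68.9 ± 4.60), followed by WT (63.0 ± 6.40), Q20 (62.4, range 52.3 to 67.9), Q92 (62.4 ± 8.81), Q111 (61.0 ± 4.76) and Q80 (57.8 ± 3.29). The step from Q175 to WT, 68.9 to 63.0 CPM, was larger than the SD of Q175 and smaller than that of WT. Against controls, with 52.3 to 76.8 CPM, the log2 difference was 0.14 (SE 0.06, adjusted p = 0.383) in Q140 and 0.12 (SE 0.06, adjusted p = 0.191) in Q175, and 7 of 8 libraries of each were above the control median. In Q80 it was -0.12 (SE 0.06, adjusted p = 0.997). None of these passed. At 2 months the Mir152 means lay between 48.3 CPM (WT) and 54.5 CPM (Q92), and at 6 months, without WT, between 63.8 CPM (Q140) and 68.9 CPM (Q92).

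**Figure D5:**
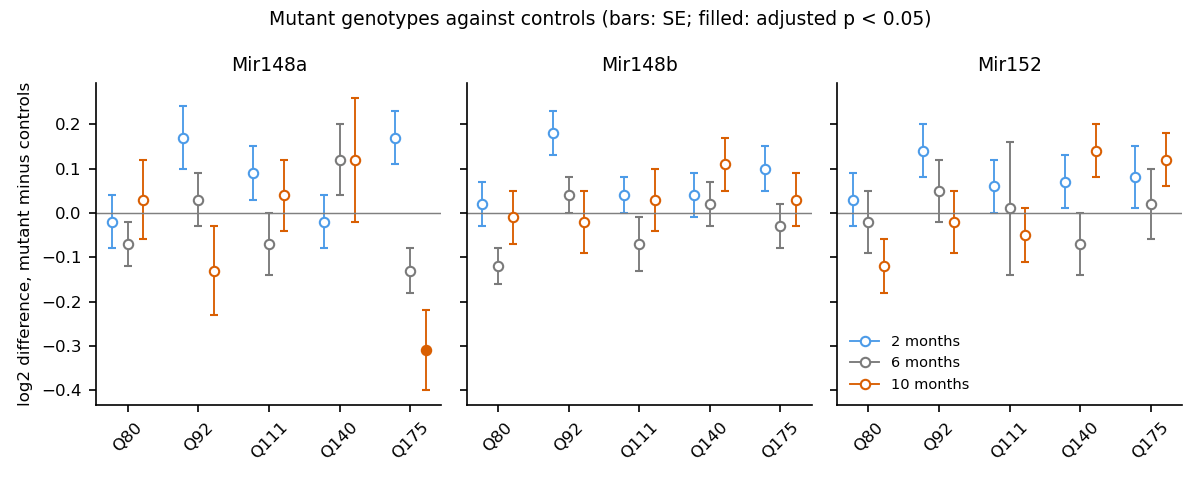
Difference in log2 level between each mutant genotype (8 mice) and the controls of the same age (16 mice at 2 and 10 months, 8 Q20 mice at 6 months), by family member and age, from edgeR. Bars are SE, filled points have an adjusted p under 0.05, and the line marks no difference. The single filled point is Mir148a in Q175 mice at 10 months, at -0.31.

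To ask whether a level follows the length of the tract across genotypes, CAG length was fitted as a number, giving a log2 change per 100 repeats. None of the 9 values at single ages passed in edgeR (1 with an unadjusted p under 0.05, 0 in DESeq2), where 0%, 2.75% and 8.84% of microRNAs passed at 2, 6 and 10 months. For Mir148a the coefficient was 0.07 (SE 0.04, adjusted p = 0.841) at 2 months, -0.06 (SE 0.04, adjusted p = 0.477) at 6 months and -0.09 (SE 0.07, adjusted p = 0.482) at 10 months. Without the Q175 mice the 6- and 10-month coefficients became 0.06 and 0.05, so their sign rested on that genotype. Mir152 had 0.05 (adjusted p = 0.841), -0.0035 (adjusted p = 1.0) and 0.09 (SE 0.03, adjusted p = 0.109), and Mir148b had 0.05 (adjusted p = 0.841), -0.02 (adjusted p = 0.733) and 0.04 (adjusted p = 0.492).

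The Z statistics of 6 and 10 months were then combined, where 11.9% of microRNAs passed and 0 of the 3 members did. The combined Z was -1.88 for Mir148a (adjusted p = 0.207), 0.27 for Mir148b (adjusted p = 0.902) and 1.71 for Mir152 (adjusted p = 0.262), with 0 of the 3 under an unadjusted p of 0.05 in edgeR and 0 called by DESeq2. For Mir148a the call turned on single choices: without the Q140 library at 3004 CPM the Z was -2.77 (adjusted p = 0.0404), with the 6-month WT libraries included it was -3.48 (adjusted p = 0.00333), and without the Q175 mice it was 1.20 (adjusted p = 0.763). The interaction of age and CAG length over the 2- and 10-month libraries was -0.17 for Mir148a (SE 0.08, adjusted p = 0.342, with 1.83% of microRNAs called) and did not pass for the other members (adjusted p = 0.879 for both).

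No difference between the sexes passed. None of the 9 values of female against male mice passed in edgeR (log2 -0.04 to 0.09, adjusted p 0.647 to 0.995, 0 with an unadjusted p under 0.05 and 0 in DESeq2), where 0.612%, 0% and 0.305% of microRNAs passed at 2, 6 and 10 months. The interaction of sex and CAG length at 6 and 10 months passed for 0 of 3 (adjusted p 0.935 to 0.995, 0 unadjusted, 0 in DESeq2, background 0%).

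The WT mice of 6 months are shown apart, since the study's methods do not list such cortex libraries. Their names also have another form than those of the other 6-month libraries, so genotype and naming cannot be told apart. All 8 carry the L number 3. At 6 months 6 other libraries carry it, 3 of them Q20, with 2580 to 3201 CPM of Mir148a. Whether libraries with the same L number but names of another form were prepared or sequenced together is not given. Among the 8 WT libraries Mir148a was 1772 CPM in female 3 and 3592 to 5396 CPM in the other 7, where Q20 mice had 2695 to 3320 CPM. The log2 difference from Q20 was 0.60 (SE 0.17, adjusted p = 0.0077). Mir152 was 56.8 CPM in the same female 3 and 95 to 128 CPM in the other 7, above the 58.7 to 75.3 CPM of Q20 mice (log2 0.67, SE 0.13, adjusted p = 0.000377). Mir148b ranged from 945 to 1388 CPM against 946 to 1120 CPM (log2 0.13, SE 0.08, adjusted p = 0.165, and 0.17 with adjusted p = 0.0235 without female 3). In this comparison 55% of all tested microRNAs passed. Mir122 was at 4.04 to 11.3 CPM in these libraries and at 0.827 to 2.62 CPM in Q20, and all 4 liver markers (Mir122, Mir192, Mir194-1 and Mir194-2) rose, with a summed level of 1173 to 3675 CPM against 1327 to 1480 CPM. Some other markers moved too: the oligodendrocyte marker Mir219a-2 fell (log2 -1.13, adjusted p = 8.85e-06), the red blood cell marker Mir144 (0.34, adjusted p = 0.0127) and the vessel marker Mir145a (0.66, adjusted p = 3.87e-06) rose, and of 8 neuronal markers 2 rose and 3 fell. The oligodendrocyte marker Mir219a-1 (-0.32, adjusted p = 0.121) and the vessel markers Mir126a (0.07, adjusted p = 0.244) and Mir143 (0.16, adjusted p = 0.507) did not pass. Nor did the choroid plexus marker Mir204 (-0.10, adjusted p = 0.643) or the leukocyte marker Mir155 (-0.30, adjusted p = 0.174). The part of these values in the result was not tested beyond the fit with Mir122 as a covariate, which gave Mir148a a log2 difference of 0.99 (adjusted p = 0.0589) and Mir152 one of 1.14 (adjusted p = 0.00448). At 2 and 10 months, where 0% of microRNAs passed between WT and Q20, none of the 6 family values passed in edgeR (adjusted p 0.833 to 0.956, 0 with an unadjusted p under 0.05, 0 in DESeq2).

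Neurons and other cell types were read from marker microRNAs, and cortical identity was not tested. The 9 neuronal markers in the table (of the Mir124, Mir128, Mir138 and Mir9 families) summed to 102577 to 119233 CPM in controls and 97496 to 110121 CPM in Q175 mice at 10 months, and 3 of the 8 tested fell in Q175, where 12.2% of all tested microRNAs passed (18 rose and 22 fell). The oligodendrocyte markers (Mir219a-1, Mir219a-2 and Mir338) summed to 3577 to 5177 and 4492 to 4994 CPM with 0 of 2 tested called, and the vessel markers (Mir126a, Mir143 and Mir145a) to 16863 to 24015 and 16382 to 21835 CPM with 0 of 3 called. The 3 red blood cell markers summed to 2207 to 2959 and 2098 to 2711 CPM with 0 of 1 tested called, and the 2 microglia and leukocyte markers to 10.3 to 23.1 and 13.1 to 26.9 CPM with 0 of 1 called. The choroid plexus marker Mir204 had 2464 to 10922 CPM in controls and 2519 to 3066 CPM in Q175 mice and fell (log2 -0.72, SE 0.23, adjusted p = 0.0398). The 4 liver markers summed to 1029 to 1224 and 1005 to 1181 CPM with 0 of 4 called. The part of any of these in the Mir148a value was not tested, apart from the Mir122 covariate.

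Of the list of microRNAs taken for the offset seed, 3 of 4 (Mir130a, Mir130b and Mir301) were found to carry it, and for Mir301b it was not checked because the sequence table used here gives its 5p strand only. In Q175 mice at 10 months Mir301b fell (log2 -0.31, SE 0.10, adjusted p = 0.0398, where 12.2% of all tested microRNAs passed), while Mir130a (0.16, adjusted p = 0.0742), Mir130b (-0.16, adjusted p = 0.0914) and Mir301 (0.01, adjusted p = 0.895) did not pass. The median of these 4 was -0.07, beside -0.01 for all 327 tested. With age in controls, where 49.4% of all tested microRNAs passed, Mir130a (log2 -0.26, SE 0.05, adjusted p = 1.31e-05) and Mir130b (-0.16, SE 0.04, adjusted p = 0.00225) fell. Mir301 rose (0.25, SE 0.04, adjusted p = 2.87e-06), and Mir301b did not pass (0.03, SE 0.07, adjusted p = 0.754). Of the Mir29 group, which is known to target the de novo DNA methyltransferases Dnmt3a and Dnmt3b, 2 of 4 genes were tested. Both rose with age in controls, where 49.4% of all tested microRNAs passed (Mir29a log2 0.43, SE 0.03, adjusted p = 1.73e-12, and Mir29b-1 0.58, SE 0.10, adjusted p = 4.84e-06), and neither passed in Q175 at 10 months (-0.03 and 0.02). Of the 6 microRNAs of Hox clusters, 3 were tested, and at 10 months Mir615 rose in Q175 mice (log2 2.21, SE 0.25, adjusted p = 6.49e-07) while Mir10a (0.14, adjusted p = 0.545) and Mir10b (0.42, adjusted p = 0.193) did not pass.

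Across all libraries of 2 and 10 months, after subtracting each genotype and age group's mean, the microRNAs most like a member in log2 CPM were found by Spearman's correlation among 218 others. For Mir148a they were Mir532 (rho 0.71), Mir140 (0.64) and Mir181d (0.58). For Mir148b they were Mir582 (0.43), Mir181d (0.43) and Mir19b-2 (0.42), and for Mir152 Mir10b (0.43), Mir140 (0.42) and Mir145a (0.38). The members were less like each other than like these, with rho 0.36 between Mir148a and Mir148b, 0.32 between Mir148a and Mir152 and 0.25 between Mir148b and Mir152. Libraries share their preparation and scaling, so these values are descriptions.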

How the data were processed

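Small RNA from 168 cortices was sequenced by the authors as 36-base single-end reads. Per the methods, base calls were made with CASAVA 1.8.2 (submitters' processing notes), reads were aligned to mm10 with STAR and counted with HTSeq. The authors deposited an estimated count per Ensembl transcript without normalization, and an FPKM table of the same transcripts, used here only for levels between genes. Of the nonzero values 48.1% were not whole, so estimated counts were rounded to whole numbers. The microRNAs tested were 329 of 478 symbols of the study's list found by name (GENCODE vM21), with at least 1 count in a fit. Library totals, over all transcripts, ranged from 2041741 to 11646287 (median 4810487), with 66.7% on these microRNAs.

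Tests used edgeR 4.0.16 in R 4.3.3 (TMM normalization, robust quasi-likelihood F test). Sex was a covariate, joined at 6 months by the code in the library name, with Benjamini-Hochberg adjustment at 0.05. SE is the coefficient over the root of F. As in the methods, combined statistics are the sum of Z at 6 and 10 months over the square root of 2. Each fit held only the groups it compares. WT mice of 6 months were left out except where stated, and 2 libraries whose label and cage disagree took the cage's sex. Scripts were checked on simulated counts.

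The members and lists were chosen with earlier results of these data known. Named were the members in every comparison, the fixed lists (offset seed, Mir29 group, Hox clusters, cell type markers) and, for each member, the 3 microRNAs of at least 10 CPM with the highest correlation. Alternatives were RLE normalization, library totals alone, DESeq2 1.42.0, filterByExpr, all transcripts, replaced outlier counts, Mir122 as a covariate, the labels' sex, a replicate block, the 6-month WT libraries, no library code, LB libraries only, L number, Q20 controls only, no Q175 mice and all genotypes in 1 fit, with 3 settings and the interaction of age with each genotype added after seeing the data.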

Additional observations from a re-analysis of the deposited data

Results flagged for a closer look

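In 63 groups of 8 libraries (3 genes, 7 genotypes, 3 ages), 9 held a library whose gap to its nearest neighbor was, as a part of the group's range, over Dixon's 95% critical value, where chance gives about 1 in 20 groups. Among Q140 mice of 10 months, female 2 was highest in Mir148a (3004 CPM, next 1598, gap 0.687 of the range) and in Mir148b (1147 CPM, next 950, gap 0.621). Mir148a was also high in Q80 female 3 at 6 months (3774 CPM, next 3017, gap 0.609) and in Q80 female 3 at 10 months (1883 CPM, next 1459, gap 0.641), and low in Q92 male 2 at 2 months (1677 CPM, next 2290, gap 0.631). Mir148b was high in Q175 male 4 at 2 months (1140 CPM, next 941, gap 0.661). Mir152 was high in Q111 female 2 at 6 months (97.2 CPM, next 76.0, gap 0.527) and in WT female 2 at 10 months (76.8 CPM, next 66, gap 0.554), and low in WT female 3 at 6 months (56.8 CPM, next 95, gap 0.537).

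The difference of Mir148a between Q175 mice and controls changed between 2 and 10 months, by a log2 interaction of -0.45 (SE 0.11, adjusted p = 0.00576, edgeR). Its values at the 2 ages were 0.17 and -0.31, and the interaction was fitted after these were seen.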

How the results depend on the processing

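Over 73 results and 19 settings, 826 values were compared with those reported, and all but those named here kept both direction and call. In 14 results 32 values changed sign, 8 calls were lost and 10 gained. None of those that changed sign was called under either setting. The cause of the changes below was not tested, except that testing all transcripts adjusts over more features.

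For Mir148a, the association with CAG length became 0.06 at 6 months and 0.05 at 10 months without the Q175 mice, and the combined Z became 1.20. Including the 6-month WT libraries made it -0.27 at 6 months and the Z -3.48, both called. The Z was -2.77 and called without the Q140 female 2 library. In Q175 mice Mir148a was called at 6 months with outliers replaced and DESeq2 (-0.17) and lost its call at 10 months with all transcripts tested (-0.31). In Q140 mice at 10 months it was -0.02 with outliers replaced and -0.09 without female 2, and the Q140 age change lost its call with all transcripts and without L number 8 (-0.51 in both). Between WT and Q20 at 6 months it lost its call with Mir122 as a covariate (0.99).

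For Mir152, the association with CAG length at 6 months was 0.0009 with RLE and 0.01 with library totals or filterByExpr, and -0.26 and called with the WT libraries, where the combined Z was -0.76. Its Q175 value at 6 months was -0.0078 with RLE, -0.01 with DESeq2 with or without replaced outliers, -0.00075 with filterByExpr, -0.03 with all transcripts and -0.39 with the WT libraries. The age change lost its call with library totals (0.14 in Q80, 0.16 in Q111) and with all transcripts (0.22 and 0.20).

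For Mir148b, Q92 mice at 2 months passed with DESeq2, with replaced outliers and with filterByExpr (0.19 in each) and with L number (0.20). Its association at 6 months was 0.01 without the Q175 mice. The combined Z was -0.07 with all transcripts, -0.48 with Mir122, -0.39 with the WT libraries, -0.14 with L number and -0.008 without female 2. The age change in controls was -0.05 with library totals, -0.03 with filterByExpr, -0.02 with all transcripts or all genotypes in 1 fit, -3.2e-05 with replaced outliers and -0.0056 with Mir122. It was -0.07 and -0.03 in Q80 with library totals and filterByExpr, 0.002 in Q111 with Mir122, and -0.02 in Q140 with library totals. Against Q20, 6-month WT mice had -0.05 with library totals and 0.17, called, without WT female 3.

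Counts over all microRNAs moved by over 1.5 times in several comparisons. Calls for CAG length at 6 months were 9, with 0 without Q175 mice and 156 with the WT libraries, at 10 months 29, with 1 without Q175 mice, and combined 39, with 4 and 111 in the same order. Q175 mice had 9 calls at 6 months, with 0 with the WT libraries and 16 with replaced outliers, and 40 at 10 months, with 26 of all transcripts. Q92 mice at 2 months had 0, with 10 with replaced outliers, and the interaction of age and CAG length had 6, with 3 with filterByExpr. The other comparisons with 0 to 2 calls had at most 7 under any setting run.

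Same-numbered mice of different groups did not deviate together (mean r -0.0229 over 492 pairs, 0.0134 for other numbers), and 15 of 168 libraries were closest to their own number, so the numbers do not pair the mice. With the replicate block Mir148a in Q175 mice at 10 months was -0.34 (adjusted p = 0.0112), and the block changed no call of the family. Mir152, with 144 to 802 counts per library, has the largest counting error of the 3 genes.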
